A study of Mus musculus with 9 samples.

Results

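Expression of 8 genes that move cholesterol out of cells, store it as ester or sense it through the liver X receptors (LXRs) was described in cultured mouse retinal ganglion cells (RGCs). The genes were Abca1, Abcg1, Soat1, Soat2, Nr1h2, Nr1h3, Mylip and Npc1, 8 of the 22322 genes in the expression table. They were chosen from their known roles, but their levels in aging against normal RGCs were already known. Among these were the lower levels of Abca1, Abcg1 and Soat2. The values of aging against normal RGCs, counts of called genes included, are therefore a description, and no p-value is printed for them. The cells were purchased, of wild type genotype, and were sequenced in 3 groups of 3 libraries, 9 in all. Normal RGCs received neither treatment. Aging RGCs were treated with D-galactose, a sugar used to bring on senescence in culture. Aging RGCs + USCs medium received D-galactose first and afterwards the conditioned medium of urine-derived stem cells (USCs), without the stem cells. The libraries of a group were replicate wells of purchased cells, so the spread between them may be technical.

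Cells cannot break down the sterol ring, so surplus cholesterol is either exported to lipoproteins or esterified and stored in droplets. ABCA1 hands cholesterol and phospholipid to lipid-poor apolipoproteins, ABCG1 promotes export to larger lipoprotein particles, and SOAT1 and SOAT2 join cholesterol to fatty acids in the endoplasmic reticulum. Oxysterols, which accumulate when cholesterol does, activate LXRα (Nr1h3) and LXRβ (Nr1h2). With retinoid X receptors these induce Abca1, Abcg1 and Mylip, whose product IDOL is a ubiquitin ligase that limits lipoprotein uptake. NPC1 releases cholesterol from lysosomes. In the retina, cholesterol is passed between glia and neurons on apolipoprotein particles loaded by these transporters.

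Library totals ranged from 18189619 to 22342290 expected counts, the estimated reads per gene, and 12155 genes (54.5%) passed the filter on low counts. Of the 8 genes, 7 passed and Nr1h3 did not. The labelled cell type was only in part borne out by its markers. Of 12 RGC markers, Pou4f2 and Pou4f3 were at 0 in all 9 libraries, and Thy1, Sncg, Slc17a6, Nefh and Elavl3 were below 1 CPM in each. The 12 summed to 139 to 150 CPM in normal RGCs. Their sum was 99.2 to 103 CPM in aging RGCs and 75.4 to 83.5 CPM with USCs medium. Among them Nefl stepped down from 57.5 to 67.5 CPM, through 36.6 to 41.5 CPM, to 16.1 to 18.2 CPM, while Rbpms was at 45.5 to 61.6 CPM and Isl1 at 11.1 to 21.6 CPM over all libraries. By contrast, 7 epithelial markers summed to 694 to 776 CPM in normal RGCs. These reached 805 to 819 CPM in aging RGCs and 981 to 1018 CPM with USCs medium. Krt8 and Krt18 held nearly all of this sum. Krt5 was at 0 in all libraries, Cdh1, Krt14 and Cldn4 were below 1 CPM in each, and Epcam was at 1.30 to 2.76 CPM. Krt8 went from 391 to 434 CPM, through 553 to 569 CPM, to 693 to 738 CPM. Krt18 was at 302 to 340 CPM, then 248 to 259 CPM, then 278 to 287 CPM. The 6 mesenchymal markers summed to 2128 to 2442 CPM over all libraries, and Vim, at 1662 to 2037 CPM, held most of it. Col3a1 went from 408 to 486 CPM, through 385 to 395 CPM, to 233 to 238 CPM. Pdgfrb went from 3.95 to 5.48 CPM, through 2.73 to 3.04 CPM, to 0.922 to 1.34 CPM. Col1a1 was at 13.2 to 17.1 CPM, then 6.65 to 8.96 CPM, then 6.94 to 7.20 CPM. Col1a2 and Acta2 were below 1 CPM in each library. CPM is the count relative to the library total, per 1000000, scaled by TMM factors.

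Promoters of Abca1 and Mylip, the LXR-induced genes of the set with a sequence here, are shown because the levels of both were lower in each library that had received D-galactose. Each run is the 250 bases before the start site on GRCm38.p6 from RefSeq, 5′ to 3′ on the strand of the gene. Abca1 is at chr4:53159896-53160145 on the minus strand and Mylip at chr13:45389492-45389741 on the plus strand. Capitals mark promoter motifs. GGGCGG is the motif of Sp-family factors, while CACGTG is the E-box motif, whereas TATAAA positions the start of transcription. In Abca1, capitals also mark each copy of the repeat in the closest match to an LXR element.
Abca1: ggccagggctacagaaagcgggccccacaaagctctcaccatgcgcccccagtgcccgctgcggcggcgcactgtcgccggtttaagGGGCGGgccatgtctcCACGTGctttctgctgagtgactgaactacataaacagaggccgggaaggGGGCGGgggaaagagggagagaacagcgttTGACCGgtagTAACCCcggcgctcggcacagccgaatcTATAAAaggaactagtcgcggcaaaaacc
Mylip: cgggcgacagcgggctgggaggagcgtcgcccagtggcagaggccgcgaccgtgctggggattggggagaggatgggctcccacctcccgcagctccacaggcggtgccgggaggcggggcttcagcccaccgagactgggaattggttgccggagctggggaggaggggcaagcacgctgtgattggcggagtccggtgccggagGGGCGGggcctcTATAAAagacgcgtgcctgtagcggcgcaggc

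An LXR element is a direct repeat of AGGTCA with 4 bases between the copies, here searched on both strands. With up to 2 mismatches in the 12 repeat bases, 2.57% of 32851 promoters of this length held it and 0 of the 5 genes with a promoter sequence (Abca1, Mylip, Nr1h2, Nr1h3 and Soat1) did. With 3 mismatches, a setting added after the sequences were seen, 18.5% of all promoters matched, and of the 5 genes Abca1 alone did. Its match ran from 67 to 52 bases before the start on the opposite strand, where it reads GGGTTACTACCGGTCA. AGGTCA on its own, found in 14.0% of promoters, and TCACNCCAC, the letters of a sterol response element (1.05%), were in none of the 5.

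Motifs of Sp-family factors (GC boxes) were found in 32.7% of all promoters, TATA boxes in 12.4% and E-boxes in 6.02%. Abca1 held GC boxes from -163 to -158 and from -97 to -92, an E-box from -147 to -142 and a TATA box from -29 to -24. Mylip held a GC box from -44 to -39 and a TATA box from -32 to -27. None of these letter strings was in the promoters of Nr1h2, Nr1h3 or Soat1. The share of G and C was 61.6% in Abca1 and 71.2% in Mylip, against a median of 52.4% over all promoters. Such matches describe the letters and do not show binding.

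**Figure D1:**
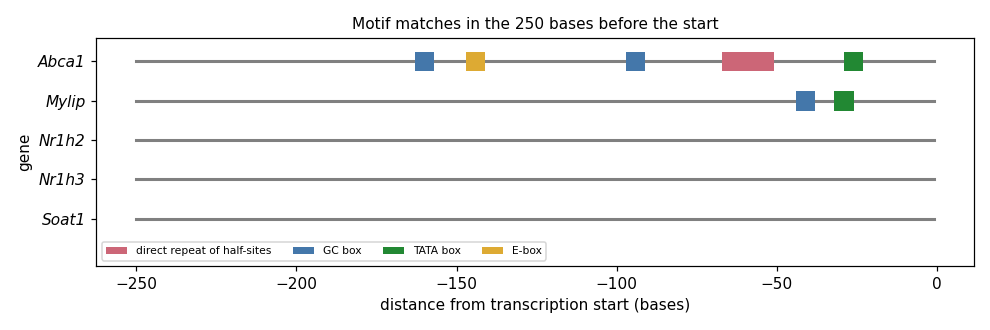
Matches to 4 motifs in the 250 bases before the start site of the 5 genes with a promoter sequence, with distance from the start in bases on the x axis and 1 line per gene. Abca1 carries 5 matches and Mylip 2, both with a TATA box near the start, and the other genes carry none. The direct repeat in Abca1 has 3 mismatches.

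In aging RGCs, 3 of the 7 genes tested had an adjusted p under 0.05 and a level at least 2-fold lower than in normal RGCs, beside 1.56% of all genes tested, and 0 were at least 2-fold higher, beside 1.09%. Without the fold limit the counts were 5 lower, beside 22.9%, and 1 higher, beside 23.5%. Since this contrast served to choose the genes, nothing is read from these shares. With USCs medium, 1 of the 7 rose at least 2-fold against aging RGCs (1.23% of all genes tested) and 0 fell at least 2-fold (4.22%). Without the fold limit 2 fell (25.9%) and 1 rose (27.1%). Against normal RGCs, 2 fell at least 2-fold (5.25%) and 0 rose (1.47%), and without the fold limit 5 fell (29.9%) and 0 rose (30.6%). The comparisons share their libraries in pairs, so they are not independent of each other. The normal and aging libraries also served to choose Abca1, Abcg1 and Soat2. Of these, Soat2 was the gene that rose at least 2-fold against aging RGCs. Abca1 and Abcg1 were the 2 that fell at least 2-fold against normal RGCs. The shares of the medium comparisons are therefore a description too, and nothing is read from them. For these 3 genes no p-value is given for a difference from normal RGCs, or for Soat2 from aging RGCs. The p-values of the other genes draw on the same libraries. All adjusted p-values come from the quasi-likelihood test of edgeR, adjusted by Benjamini-Hochberg over 12155 genes, and for the medium comparisons a gene is said to rise or fall where that p was under 0.05.

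Abca1 (ENSMUSG00000015243, GRCm38 chr4:53030787-53159895, minus strand) encodes the transporter that starts the formation of high-density lipoprotein. Its level was 21.2, 16.6 and 20.6 CPM in the normal RGC libraries, 8.38, 6.23 and 7.54 CPM in aging RGCs, and 4.11, 4.12 and 5.58 CPM with USCs medium. The groups formed 3 steps with no overlap. The summed RGC and epithelial markers also formed 3 steps with no overlap. The epithelial steps were those of Krt8, while Krt18 was lowest in aging RGCs. The part of these markers in the differences of the 8 genes was not tested. Aging RGCs were 62.1% lower than normal RGCs, a log2 fold change of -1.40 (SE 0.125, n = 3 against 3). As these are bulk libraries, fewer cells of a type and less RNA per cell cannot be told apart. With USCs medium Abca1 did not return toward the normal level. It fell by a further 37.6% against aging RGCs (log2 fold change -0.68, SE 0.151, edgeR adjusted p = 3.82e-04), and was 4.23-fold lower than in normal RGCs (log2 fold change -2.08, SE 0.133).

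Abcg1 (ENSMUSG00000024030, chr17:31057675-31117988, plus strand) encodes a half-transporter that promotes sterol export to mature lipoprotein particles. It was at 40.0, 30.2 and 37.35 CPM in normal RGCs, 12.4, 12.05 and 13.8 CPM in aging RGCs, and 12.6, 10.6 and 11.01 CPM with USCs medium. The aging and medium libraries overlapped, and all 6 lay far below the normal ones. The level was 64.5% lower in aging than in normal RGCs (log2 fold change -1.49, SE 0.0943). No difference between the medium and aging groups was detected (log2 fold change -0.16, 95% interval -0.38 to 0.06, edgeR adjusted p = 0.221). The upper end of that interval lies far below the normal level. Against normal RGCs, Abcg1 with USCs medium was 3.15-fold lower (log2 fold change -1.66, SE 0.0955).

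Mylip (ENSMUSG00000038175, chr13:45389742-45412022, plus strand), the LXR-induced ubiquitin ligase, was at 28.3, 28.5 and 29.45 CPM in normal RGCs. In aging RGCs it was at 16.4, 15.04 and 18.1 CPM, and with USCs medium at 14.8, 12.95 and 16.3 CPM. As with Abcg1, the treated groups overlapped with each other and neither reached the normal range. The level was 42.5% lower in aging RGCs (log2 fold change -0.80, SE 0.0833). Between the medium and aging groups the log2 fold change was -0.17 (95% interval -0.36 to 0.01, edgeR adjusted p = 0.114). Against normal RGCs Mylip fell by 0.97 on the log2 scale (SE 0.0844, edgeR adjusted p = 7.60e-11), just short of the 2-fold line.

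**Figure D2:**
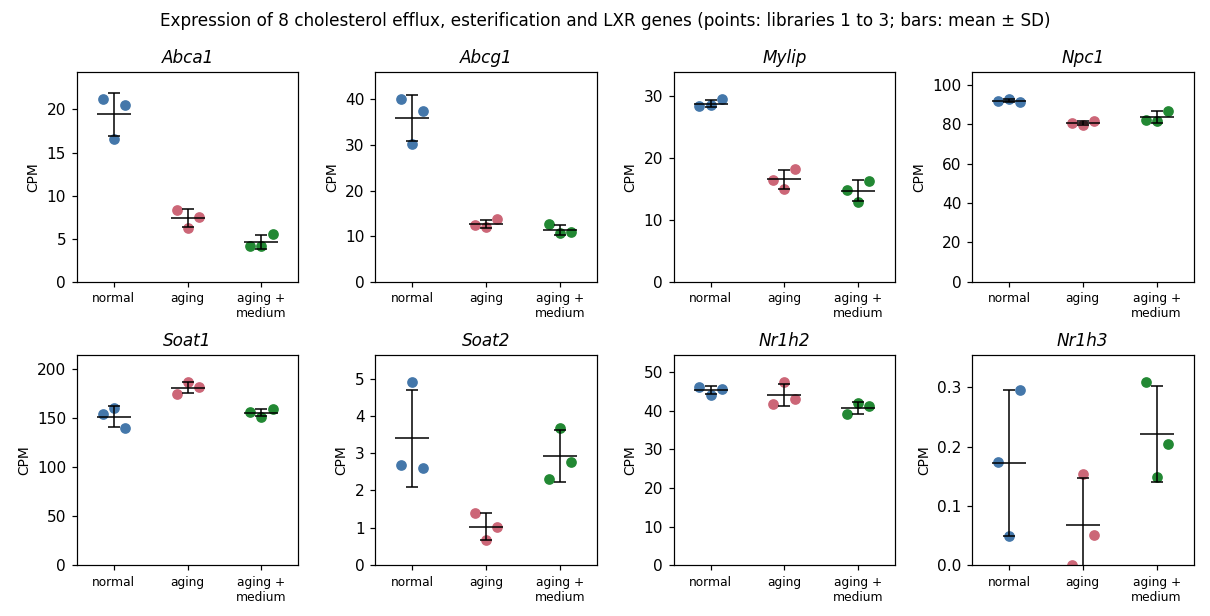
Level of each of the 8 genes in CPM (y axes, from 0, with a scale of their own) in the 9 libraries, by group on the x axis. Points are libraries and bars are the mean ± SD of 3. Abca1 steps down from normal to aging to medium, Abcg1 and Mylip are low in both groups given D-galactose, and Soat2 is low in aging RGCs alone.

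The esterifying enzymes came next in the path of surplus cholesterol. Soat2 (ENSMUSG00000023045, chr15:102150526-102163469, plus strand), the form best known from liver and intestine, had 62, 101 and 53 counts in normal RGCs, 26, 13 and 20 in aging RGCs, and 45, 74 and 54 with USCs medium. In CPM these were 2.69, 4.89 and 2.615, then 1.41, 0.670 and 1.01, then 2.31, 3.67 and 2.77. All 3 aging libraries were below every other library, while the medium and normal groups overlapped. The level was 69.6% lower in aging RGCs (log2 fold change -1.72, SE 0.300). It was 2.84-fold higher with USCs medium than in aging RGCs (log2 fold change 1.51, SE 0.307), measured from the low aging values on which the gene was chosen. Against normal RGCs the log2 fold change was -0.21 (95% interval -0.73 to 0.31), which leaves room for a shortfall or a small excess.

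Soat1 (ENSMUSG00000026600, chr1:156424525-156474331, minus strand), the form found in most cells, moved the opposite way and by much less. It was at 154.5, 160 and 140 CPM in normal RGCs, 175, 187 and 182 CPM in aging RGCs, and 156, 152 and 160 CPM with USCs medium. The aging libraries were the highest of the 9 without overlap. The level was 19.5% higher in aging RGCs (log2 fold change 0.26, SE 0.0425), fell by 13.9% with USCs medium against aging RGCs (log2 fold change -0.22, SE 0.0426, edgeR adjusted p = 9.88e-05), and differed from normal RGCs by 0.04 (95% interval -0.05 to 0.13, edgeR adjusted p = 0.433). On the FPKM scale, which divides by transcript length, Soat2 made up 3.42% ± 1.12 (SD, n = 3) of the summed Soat1 and Soat2 level in normal RGCs, 0.940% ± 0.355 in aging RGCs and 2.89% ± 0.662 with USCs medium. Soat1 was therefore the main form by level in every group, and the low Soat2 level in aging RGCs concerned a small part of the sum.

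Of the receptors, Nr1h2 (LXRβ, ENSMUSG00000060601, chr7:44549616-44553951, minus strand) held nearly all the LXR message. It was at 46.2, 44.2 and 45.7 CPM in normal RGCs, 41.85, 47.4 and 43.1 CPM in aging RGCs, and 39.1, 41.9 and 41.2 CPM with USCs medium. Normal and aging RGCs overlapped, with a log2 fold change of -0.04 (95% interval -0.16 to 0.08). With USCs medium it was -0.12 against aging RGCs (95% interval -0.23 to 0.00, edgeR adjusted p = 0.0964) and fell by 0.16 on the log2 scale against normal RGCs (SE 0.0574, edgeR adjusted p = 0.0206). The latter call was lost in 3 of the 6 fits that left out a library of the comparison, with edgeR adjusted p = 0.0617 without normal RGCs replicate 1, 0.0501 without normal RGCs replicate 3 and 0.0991 without aging RGCs + USCs medium replicate 1.

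Nr1h3 (LXRα, ENSMUSG00000002108, chr2:91184061-91202834, minus strand) had 4, 1 and 6 counts in normal RGCs, 0, 3 and 1 in aging RGCs, and 6, 3 and 4 with USCs medium. The ranges overlapped. In the fit without a filter on low counts, the log2 fold change was -1.24 in aging against normal RGCs, 1.59 with USCs medium against aging RGCs (edgeR adjusted p = 0.243) and 0.35 against normal RGCs (edgeR adjusted p = 0.798), so no difference with USCs medium was detectable at this depth. On the FPKM scale Nr1h3 was 0.384% ± 0.269 of the summed LXR level in normal RGCs, 0.156% ± 0.174 in aging RGCs and 0.578% ± 0.212 with USCs medium (SD, n = 3). Its exons overlap those of Gm13783 on the same strand, so these few reads may be shared.

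Npc1 (ENSMUSG00000024413), the lysosomal cholesterol exporter, moved little. It was at 92.0, 92.8 and 91.4 CPM in normal RGCs, 80.95, 79.7 and 81.8 CPM in aging RGCs, and 82.2, 81.9 and 87.0 CPM with USCs medium. All normal libraries were above all others. The level was 12.2% lower in aging RGCs (log2 fold change -0.19, SE 0.0422), and the log2 fold change of the medium against aging RGCs was 0.05 (95% interval -0.04 to 0.14, edgeR adjusted p = 0.335). Npc1 fell by 9.09% with USCs medium against normal RGCs (log2 fold change -0.14, SE 0.0420, edgeR adjusted p = 0.00596). Its exons overlap those of Rmc1 and Gm15956 on the other strand, and whether counting used strand is not given in the sources used here.

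**Figure D3:**
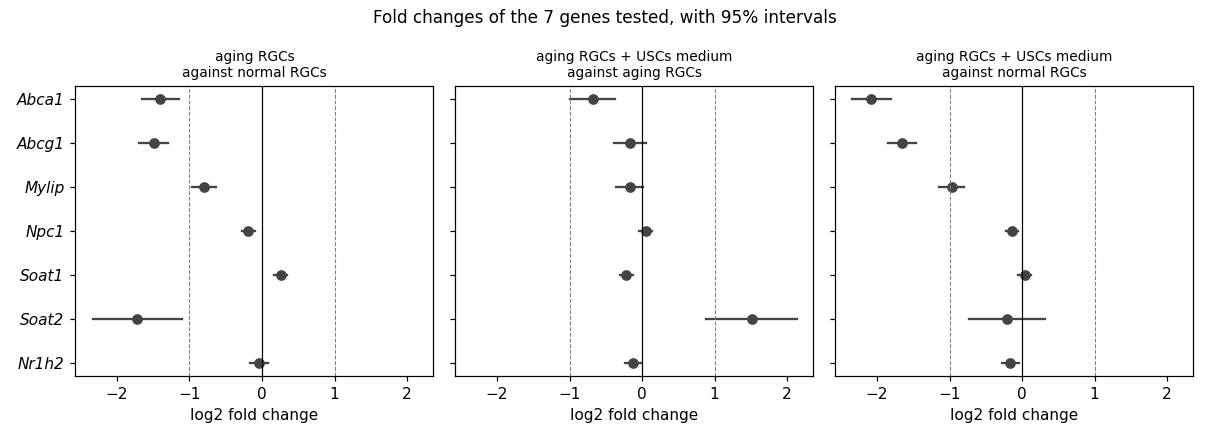
Log2 fold change (x axis) of the 7 genes tested in 3 comparisons, 1 panel each. Points are estimates, lines are 95% intervals and dashed lines mark a 2-fold change. In the middle panel Soat2 lies at 1.51, Abca1 at -0.68, and the intervals of Abcg1, Mylip and Npc1 include 0. The first panel is a description, since it served to choose the genes.

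Levels can be compared between genes on the FPKM scale. In normal RGCs the order was Soat1 at 44.2 ± 1.80 FPKM (SD, n = 3), Nr1h2 at 25.8 ± 0.892, Npc1 at 18.1 ± 0.202, Mylip at 9.65 ± 0.159, Abcg1 at 6.36 ± 0.919, Abca1 at 1.95 ± 0.251, Soat2 at 1.58 ± 0.604 and Nr1h3 at 0.10 ± 0.070. Neighbours did not overlap except Abca1 and Soat2, and the order was the same in aging RGCs with the same exception. With USCs medium Soat2 (1.27 ± 0.299 FPKM) was above Abca1 (0.427 ± 0.0808 FPKM) in 3 of 3 libraries, with no overlap.

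By Pearson's r of log2 CPM over the 9 libraries, taken as a description because the points are 3 groups, the 5 of 10865 genes with a pattern most like Abca1 were Tcp11l2 (r = 0.992), Ypel3 (0.991), Stard10 (0.990), Heca (0.989) and Cdk19 (0.989). Among those least like it were Epb41l2 (-0.994) and Cdc27 (-0.988). For Abcg1 the most alike were Invs (0.995), Pdp1 (0.989), Aldh6a1 (0.989), Maf1 (0.988) and Rffl (0.986). The least alike were Gemin4 (-0.992), Ezh2 (-0.992) and Stard4 (-0.992). Mylip reached r = 0.970 with each transporter, and the transporters r = 0.95 with each other, which placed Abcg1 at rank 176 for Abca1.

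Other LXR targets lay on both sides of no change. Of 17 on the list, 11 were tested. In aging RGCs 2 were at least 2-fold lower and 0 higher, beside 1.56% and 1.09% of all genes tested. The list median was -0.14 against 0.00 over all genes tested. The 2 were Lpl, a lipoprotein lipase (log2 fold change -1.84), and Apoe, the main apolipoprotein of the retina (-1.39). Short of the 2-fold line, Pltp was at -0.78, Arl4c at -0.44 and Mertk at 0.27. The lipid synthesis targets were mixed. Srebf1, the regulator of fatty acid synthesis, was at -0.14, while fatty acid synthase Fasn was at 0.45, the desaturases Scd2 and Scd1 at 0.18 and 0.17, and the phospholipid acyltransferase Lpcat3 at 0.14.

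With USCs medium against aging RGCs, 2 of the 11 fell at least 2-fold and 1 rose, beside 4.22% and 1.23% of all genes tested. The efferocytosis receptor gene Mertk was at 43.1, 44.7 and 42.2 CPM in normal RGCs, 50.8, 52.6 and 53.5 CPM in aging RGCs, and 19.9, 20.9 and 22 CPM with USCs medium. Its groups did not overlap, and it fell by 1.32 on the log2 scale (SE 0.0606, edgeR adjusted p = 1.69e-16). The phosphodiesterase gene Smpdl3a fell by 1.13 (SE 0.247, edgeR adjusted p = 3.26e-04) and Arl4c, a small GTPase, by 0.28 (SE 0.0656, edgeR adjusted p = 6.15e-04). Lpl rose by 1.12 (SE 0.451, edgeR adjusted p = 0.0380), but it was at 1.95, 1.74 and 11.4 CPM in the medium libraries and at 4.0, 1.80 and 1.16 CPM in the aging ones, so the rise came from replicate 3. Against normal RGCs, Smpdl3a (-1.46), Apoe (-1.10) and Mertk (-1.05) fell at least 2-fold and 0 rose, beside 5.25% and 1.47% of all genes tested. The list median was then -0.72, against -0.01 over all genes.

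**Figure D4:**
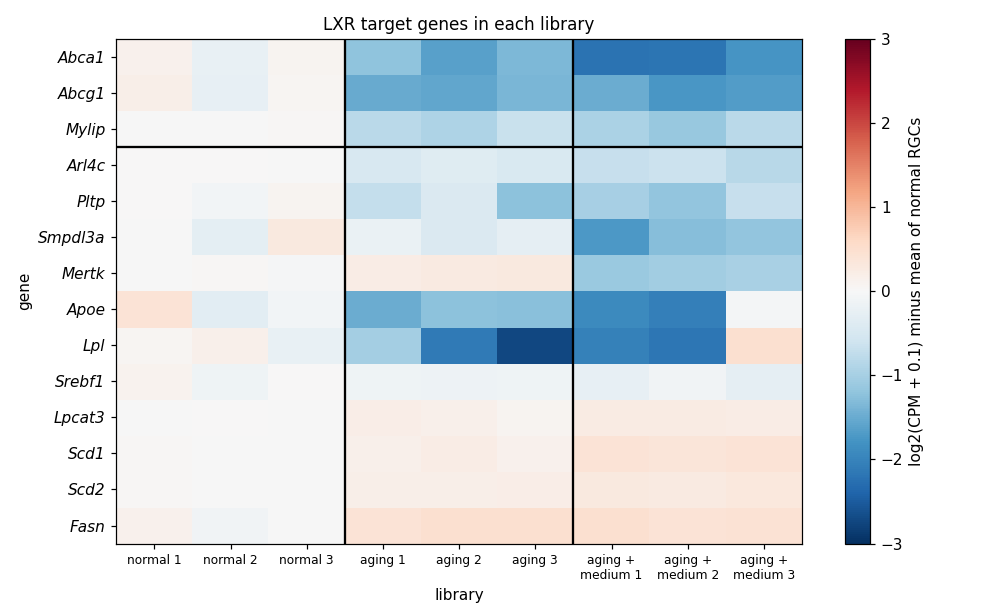
Log2(CPM + 0.1) of 3 of the 8 genes (above the line) and the 11 other LXR targets tested, minus the mean of normal RGCs, in each library on the x axis. Blue is lower and red higher. Abca1, Abcg1 and Mylip are blue in all 6 treated libraries, as are Arl4c, Pltp and Smpdl3a and, faintly, Srebf1. Mertk is blue only with USCs medium. Scd1, Scd2 and Fasn are slightly red, and Apoe and Lpl are not blue in medium replicate 3.

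Macrophage markers, of which 11 of 15 were tested, moved with some of these values. Their summed level was 78.3 to 90.7 CPM in normal RGCs. It was 65.7 to 70.1 CPM in aging RGCs, and 51.3, 47.8 and 76.5 CPM with USCs medium. Cd68 and Cd14 held 54.7% to 90.1% of the sum. The other 13 markers, set apart after their values were seen, summed to 41.1, 23.0 and 29.6 CPM in normal RGCs, 17.2, 10.4 and 11.5 CPM in aging RGCs, and 6.94, 4.71 and 24.7 CPM with USCs medium. None of the 15 was at 0 in all libraries, but 6 (C1qa, C1qb, C1qc, Aif1, Tyrobp and Cx3cr1) were below 1 CPM in each. The defining genes C1qb and C1qc were at only 0.543 to 0.910 and 0.291 to 0.303 CPM in normal RGCs. Both were at 0 in all aging libraries and in medium replicates 1 and 2. Adgre1 was at most at 0.108 CPM in aging RGCs, against at least 0.921 CPM in normal RGCs. Other markers went differently. Cd68 was at 36.1 to 42.8 CPM in normal and 40.3 to 43.2 CPM in aging RGCs, Cd14 at 12 to 13.5 and 12.4 to 13.3 CPM, and Mrc1 at 3.78 to 6.07 and 5.84 to 7.49 CPM. Mrc1 was at 2.33 to 3.07 CPM with USCs medium, replicate 3 included.

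In medium replicate 3 Adgre1 was at 1.64 CPM and Lyz2 at 12.3 CPM, within the normal ranges. Apoe, at 6.04 CPM, was also within its normal range of 4.99 to 8.40 CPM, and Lpl, at 11.4 CPM, was above its normal range of 7.01 to 9.16 CPM. Abca1 was at 5.58 CPM in that library, 4.11 and 4.12 CPM in medium replicates 1 and 2, and at least 16.6 CPM in normal RGCs. Abcg1 was at 11.01 CPM in that library, 12.6 and 10.6 CPM in medium replicates 1 and 2, and at least 30.2 CPM in normal RGCs. Without that library the log2 fold change of Abca1 against aging RGCs was -0.84 (edgeR adjusted p = 1.41e-04), that of Soat2 was 1.55, and that of Mylip was -0.25 (edgeR adjusted p = 0.0388), now past the threshold. Of the other LXR targets, 2 fell and 0 rose at least 2-fold against aging RGCs without it, beside 527 and 143 of 12301 genes tested. Against normal RGCs 5 in place of 3 fell, beside 702 of 12301. The part of macrophage RNA in the differences between the groups was not tested.

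**Figure D5:**
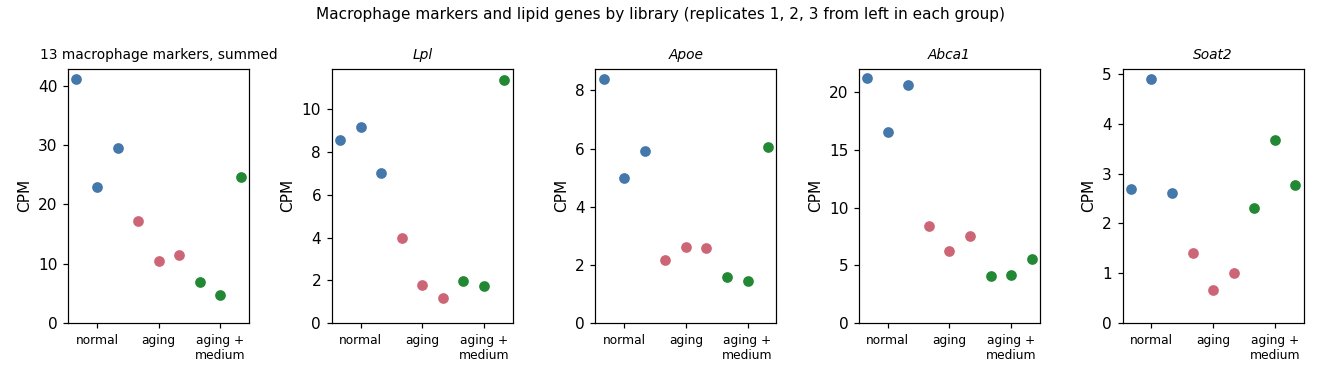
Summed CPM of 13 macrophage markers (without Cd68 and Cd14) and CPM of Lpl, Apoe, Abca1 and Soat2 in each library, replicates 1 to 3 from left within each group. In medium replicate 3 the markers (24.7 CPM) and Apoe (6.04 CPM) are within their normal ranges and Lpl (11.4 CPM) is above its own. Abca1 is at 5.58 CPM there, and at 4.11 and 4.12 CPM in medium replicates 1 and 2.

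Of 14 LXR partners and co-regulators, 11 were tested and 0 changed at least 2-fold in any comparison. Without the fold limit, 5 fell and 2 rose with USCs medium against aging RGCs, beside 25.9% and 27.1% of all genes tested. Against normal RGCs 7 fell and 2 rose, beside 29.9% and 30.6%. The retinoid X receptor genes Rxra and Rxrb were at 49.1 to 54.2 and 52.4 to 52.9 CPM in normal RGCs, and fell by 0.33 (SE 0.0537, edgeR adjusted p = 5.03e-06) and 0.31 (SE 0.0525, edgeR adjusted p = 8.49e-06) on the log2 scale with USCs medium. The coactivator gene Ncoa1 fell by 0.54 in the same comparison, USCs medium against normal RGCs (SE 0.113, edgeR adjusted p = 1.45e-04). In aging against normal RGCs the log2 fold changes of Rxra, Rxrb and Ncoa1 were already -0.13, -0.25 and -0.52. With USCs medium against aging RGCs, Rxra was at -0.20 (edgeR adjusted p = 0.00331). Rxrb was at -0.06 (edgeR adjusted p = 0.348) and Ncoa1 at -0.02 (edgeR adjusted p = 0.896) in that comparison. Rxrg and Nr0b2 were at 0 in each library.

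Genes that make or clear oxysterol ligands were few. Of 9, 5 were tested, and the oxysterol-making Ch25h and Cyp27a1 were not. With USCs medium against normal RGCs, Cyp39a1, an oxysterol hydroxylase, fell by 1.02 on the log2 scale (SE 0.172). In aging RGCs and against aging RGCs 0 of the 5 changed at least 2-fold.

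Of 15 genes for cholesterol uptake and transport inside cells, 14 were tested. In aging RGCs the scavenger receptor gene Cd36 alone was at least 2-fold lower (-1.80), beside 1.56% of all genes tested. It rose by 1.69 with USCs medium (SE 0.625, edgeR adjusted p = 0.0243), at 0.514, 0.298 and 3.79 CPM, and 0 of the list rose without replicate 3. The lipoprotein receptor gene Lrp1 fell by 0.52 with USCs medium against aging RGCs (SE 0.0428) and by 0.77 against normal RGCs (SE 0.0426). Gramd1b, which carries sterol from the plasma membrane inward, fell by 0.50 and 0.87 in the same comparisons.

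Of 9 genes for ester hydrolysis and lipid droplets, 5 were tested and 0 changed at least 2-fold in aging RGCs. With USCs medium against aging RGCs, the lipase gene Lipe was at -0.99 (SE 0.119) and the droplet coat gene Plin2 at -0.93 (SE 0.0450). Against normal RGCs Lipe fell by 1.17 (SE 0.116, edgeR adjusted p = 9.45e-10). It was the 1 gene of the list called there, beside 5.25% of all genes tested called lower and 1.47% higher. Plin2 was at 134 to 147 CPM in normal RGCs. It reached 172 to 183 CPM in aging RGCs and 87.9 to 98.5 CPM with USCs medium, with no overlap between groups. Nceh1, a cholesteryl ester hydrolase, fell by 0.43 with USCs medium against aging RGCs (SE 0.0562). Lcat rose by 1.10 in that comparison, also against aging RGCs (SE 0.447, edgeR adjusted p = 0.0390). Its call was lost in 5 of the 6 fits that left out a library of the comparison, medium replicate 3 among them. Lcat was at no more than 1.09 CPM in any library.

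Sterol synthesis genes were mostly higher. All 22 were tested, and the list median was 0.68 in aging RGCs, and 1.06 with USCs medium against normal RGCs, where 13 rose at least 2-fold (1.47% of all genes tested) and 0 fell. Against aging RGCs the median was 0.36 and 0 changed at least 2-fold. Without the fold limit 16 rose and 2 fell, beside 27.1% and 25.9% of all genes tested.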

How the data were processed

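RNA from 9 wells of mouse RGCs was sequenced, with 3 libraries in each of 3 groups, and the groups were taken from the labels. Oligo(dT) was used to enrich mRNA. Per gene, the authors deposited expected counts (estimated reads, not normalized). They also deposited FPKM, which divides by transcript length and by library size. The build mm10 is named in the submitters' processing notes, while aligner and counter were not given in the sources used here. Functional terms per gene came with the deposited table.

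The 8 genes, the gene lists and the markers were chosen with earlier results of these data known. Expected counts were rounded to whole numbers and tested with edgeR 4.0.16 in R 4.3.3, with filterByExpr, TMM factors (0.956 to 1.034), 1 mean per group over all 9 libraries (6 residual degrees of freedom), the quasi-likelihood F test and Benjamini-Hochberg adjustment over 12155 genes. A gene was called at an adjusted p under 0.05 and a fold change of at least 2. Intervals at 95% used the standard error and the degrees of freedom of that fit. The p-values measure only the spread between wells, and depth, 18189619 to 22342290 counts, limits precision mainly for Soat2 and Nr1h3. The method was tested on simulated data.

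Alternative tests were DESeq2 1.42.0, the likelihood ratio test of edgeR, and limma 3.58.1 on log2(FPKM + 1) or log2(FPKM + 0.1). The scaling was changed to upper-quartile factors or to none. The filter was dropped or set to 1 CPM in at least 3 libraries, and the fold limit was dropped or set to 1.5. The fit was also repeated on the compared groups alone, with a replicate block, and leaving out 1 library at a time. Replicates of a group differed by more than sampling noise (chi-square per gene 2.21 to 4.94). Named genes were the 8, list genes that were called, up to 4 further genes per list by fold change at an adjusted p under 0.05, and the genes with patterns most and least like Abca1 and Abcg1. Other list genes and single macrophage markers were named after their values were seen. Positions are from GENCODE M21 on GRCm38, which matched 22240 of 22285 Ensembl identifiers, and promoters from RefSeq on GRCm38.p6. Some list genes are not reported here.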

Additional observations from a re-analysis of the deposited data

How the results depend on the processing

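Of the 8 genes, 3 were called in aging against normal RGCs, 1 with USCs medium against aging RGCs and 2 with USCs medium against normal RGCs. All 3 counts are a description. The genes called with USCs medium were Soat2 against aging RGCs, and Abca1 and Abcg1 against normal RGCs. They were chosen on their normal and aging values. Without a fold-change threshold these counts were 6, 3 and 5, by construction. At a fold change of 1.5 the count against aging RGCs was 2, since Abca1 then passed. With limma on log2(FPKM + 1) it was 1 in aging against normal RGCs and 0 with USCs medium against aging RGCs, where the added 1 shrinks changes of genes at low FPKM. The other counts stayed within 1.5 times. Leaving out 1 library each gave 3 in aging against normal RGCs, 1 against aging RGCs, and 2 to 3 against normal RGCs, where Mylip passed the 2-fold line without medium replicate 3.

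No fold change of the 7 genes tested changed sign past the threshold in any alternative. Of 378 comparisons with an alternative, 369 kept their side of the threshold, 3 lost the call (Nr1h2 against normal RGCs) and 6 gained one. The 6 were Nr1h2 against aging RGCs without TMM factors, with upper-quartile factors and with limma at both pseudocounts (log2 fold change -0.21 to -0.14), and Mylip against aging RGCs without TMM factors and without medium replicate 3 (-0.25 in both). Without TMM factors the median of all genes with USCs medium moved to -0.085 against aging RGCs and -0.113 against normal RGCs, close to the size of the Nr1h2 change. With the replicate block the counts of called genes were 3, 1 and 2. Between groups, deviations of libraries with the same number had correlations of -0.13 to 0.12, so they share only a number, and the replicate block changed no call of the 8 genes. Of 324 list counts, 65 moved by more than 1.5 times.

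Expression from wells of purchased cells cannot show how these genes vary between animals. Soat2 rests on 13 to 101 counts per library and Nr1h3 on 0 to 6, so differences in Nr1h3 were not detectable. Each group has 3 libraries, and medium replicate 3 stands apart in macrophage genes. Promoter matches cover 250 bases of 5 of the 8 genes.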

Other observations

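The deposited annotation places all 8 genes among the 82 under cholesterol homeostasis, and 5 of them (Abca1, Abcg1, Soat1, Soat2 and Npc1) among the 26 under cholesterol efflux.

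The ratio of CPM (without TMM factors) to FPKM gives the transcript length that the deposited FPKM implies. For Abcg1 it was 5.73 to 5.84 kb in 7 libraries, but 3.68 kb in aging RGCs replicate 3 and 5.11 kb in aging RGCs + USCs medium replicate 2. The highest value over the lowest was 1.59, against a median of 1.04 over 9494 genes with at least 100 counts in every library, and 1.36% of these genes reached that ratio. The Abcg1 counts of those libraries, 272 and 214, were close to those of their groups. Whether a shorter Abcg1 transcript was present in them was not tested.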
